A study of Mus musculus with 12 samples.

Results

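Cohesin and condensin are represented here by 10 of the 24091 genes in a table of TPM values (transcript abundance scaled by transcript length and by the total of the sample), taken by gene symbol. The 5 cohesin genes are *Smc1a*, *Smc3*, *Rad21*, *Stag1* and *Stag2*, and the 5 condensin genes are *Smc2*, *Smc4*, *Ncapd2*, *Ncapg* and *Ncaph*. All 10 had a row in the table and a value above 0 in each of the 12 samples.

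Both complexes are rings built on a pair of SMC (structural maintenance of chromosomes) ATPases closed by a kleisin protein. Cohesin holds sister chromatids together from replication until anaphase and also forms chromatin loops in cells that no longer divide, neurons included. Condensin compacts chromosomes for mitosis. Condensin I and condensin II share SMC2 and SMC4 and differ in their other subunits.

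RNA was sequenced from mouse cerebellar tissue in 12 samples, 3 in each of 4 groups. Medulloblastomas and adjacent cerebellum, both labelled Brca2-mut;Trp53-mut, came from the same 3 mice (GB344, GB359 and GB370). Control cerebellum came from 3 mice labelled Brca2-mut;Trp53-WT (GB361, GB508 and GB512) and 3 labelled Brca2-WT;Trp53-mut (GB517, GB519 and GB520). Brca2-mut stands for loss of the exons that encode the PALB2-binding domain, driven in the central nervous system by hGFAP-Cre, and Trp53-mut for global knockout. Every sample carries at least one of these alleles, so none is wild type for both genes. No control carries both, so tissue and double-mutant genotype cannot be told apart where tumor or adjacent samples are compared with controls. The labels give no age, and the study describes the controls as age-matched.

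TPM summed to between 999793 and 999876 per sample, with 15088 to 15803 genes at 1 TPM or more, and sequencing depth is unknown. The gene *Mir6236* alone held 4.25% to 11.5% of the TPM of a sample, so the share left to all other genes was uneven. Rescaling the values without it changed no call of a member. *Brca2* lay between 3.24 and 14.6 TPM and *Trp53* between 33.1 and 131 TPM over the 12 samples. *Trp53* was higher in the Trp53-mut samples (47.1 to 131 TPM) than in the 3 Trp53-WT controls (33.1 to 37.2 TPM). These are whole-gene values that include exons outside the deleted parts, so they do not check the genotype labels. The markers expected of the labelled tissue were present, since the summed TPM of 5 mature granule neuron markers was 1887 to 3082 in adjacent and control cerebellum and 105 to 370 in tumors, and that of 7 granule progenitor markers was 98.4 to 798 and 2040 to 2653.

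The first question was how medulloblastoma differs from tumor-free cerebellum. All 5 condensin genes rose in tumors against the 6 controls, by 7.41-fold (*Ncapd2*) to 73.1-fold (*Ncapg*) in mean TPM, and 0 of the 5 cohesin genes passed the same call. A gene was called at an adjusted p under 0.01 with a log2 fold change of log2(TPM + 1) of at least 1 in size, and 14.4% of all 16241 genes tested were called higher and 21.5% lower. Genes were tested if they reached 1 TPM in 3 or more samples of the comparison. *Ncapg* and *Ncaph* were under 1 TPM in every control but GB512, so they met this filter only through the tumors. The ratio for *Ncapg* rests on a control mean of 0.457 TPM. For cohesin, 4 of 5 genes were higher at an unadjusted limma p under 0.05, as were 32.9% of all genes, and 3 of 5 did not overlap with controls, as did 28.3% of all genes in that direction. The p-values measure the spread between mice.

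Of the SMC pair of condensin, *Smc2* (Entrez 14211, chromosome 4, 52439221 to 52488365, GRCm38.p6) stood at 78.3, 92.5 and 103 TPM in the tumors of GB344, GB359 and GB370. It stood at 7.20, 6.26 and 8.0 TPM in Brca2-mut;Trp53-WT controls and at 6.50, 7.38 and 8.28 TPM in Brca2-WT;Trp53-mut controls. Tumors and controls did not overlap, and the log2 fold change was 3.48 (SE 0.12, adjusted p = 1.22e-08). Its partner *Smc4* (Entrez 70099, chromosome 3, 69004738 to 69034623), whose locus also holds the microRNA genes *Mir15b* and *Mir16-2*, stood at 130.2, 155 and 114 TPM in tumors. The controls held 10.8, 9.18 and 17.7 TPM in Brca2-mut;Trp53-WT mice and 9.26, 10.2 and 10.1 TPM in Brca2-WT;Trp53-mut mice. The log2 fold change of *Smc4* was 3.48 (SE 0.19, adjusted p = 9.17e-08), and GB512 was the highest control.

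Among the subunits particular to condensin I, *Ncapd2* (Entrez 68298, chromosome 6, 125168007 to 125192100), a HEAT-repeat subunit, measured 152, 214 and 264 TPM in tumors. The Brca2-mut;Trp53-WT controls measured 23.6, 23.8 and 34.3 TPM and the Brca2-WT;Trp53-mut controls 32.1, 27.8 and 28.3 TPM. It had the smallest log2 fold change of the 5 condensin genes, 2.82 (SE 0.18, adjusted p = 2.06e-07), and the groups did not overlap. The other HEAT-repeat subunit, *Ncapg* (Entrez 54392, chromosome 5, 45669891 to 45700547), measured 37.0, 35.0 and 28.2 TPM in tumors. Its controls measured 0.301, 0.175 and 1.76 TPM in Brca2-mut;Trp53-WT mice and 0.127, 0.182 and 0.190 TPM in Brca2-WT;Trp53-mut mice. The log2 fold change was 4.64 (SE 0.28, adjusted p = 1.56e-07), which the added 1 TPM keeps below the ratio of mean TPM. The *Lcorl* gene overlaps this locus, and reads of overlapping genes cannot be told apart here.

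The condensin I kleisin *Ncaph* (Entrez 215387, chromosome 2, 127103809 to 127133954) was nearly even among tumors, at 59.1, 58.6 and 61.5 TPM. Its controls were at 0.518, 0.674 and 3.49 TPM in Brca2-mut;Trp53-WT mice and at 0.814, 0.793 and 0.578 TPM in Brca2-WT;Trp53-mut mice. The log2 fold change was 4.95 (SE 0.31, adjusted p = 2.18e-07), the ratio of means was 52.2, and GB512 was again the highest control. The 5 genes kept the call in each of the 9 fits that left out a sample and against either control genotype alone.

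**Figure D1:**
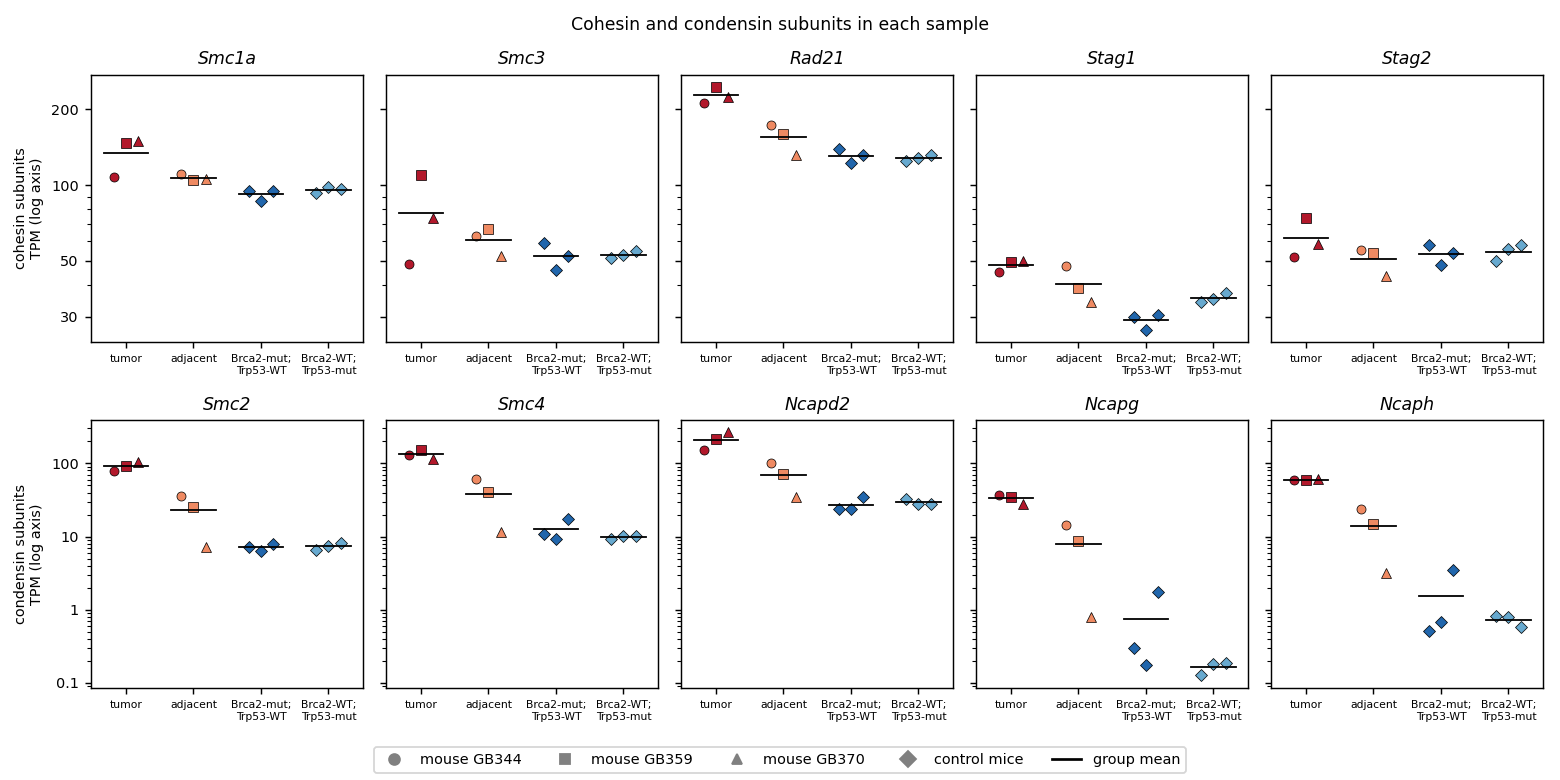
TPM of the 5 cohesin genes (top) and 5 condensin genes (bottom) in each sample on log axes, with a line at each group mean of 3 samples and a marker shape for each tumor-bearing mouse. For each condensin gene the 3 tumors lie above all 6 controls, and the adjacent cerebella run from GB344 (highest) through GB359 to GB370, which lies inside the control range for each of them except *Ncapd2*.

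TPM is scaled by transcript length, so levels can be compared between genes. In tumors the mean levels ran *Ncapd2* (210 ± 56.4 TPM, SD, n = 3), *Smc4* (133 ± 20.2), *Smc2* (91.3 ± 12.4), *Ncaph* (59.8 ± 1.56) and *Ncapg* (33.4 ± 4.63). The ranges of *Ncapd2* and *Smc4* overlapped, while each of the later neighbours was separated. The order of the means was the same in adjacent cerebellum and in both control genotypes, but in adjacent cerebellum all neighbouring ranges overlapped. Within every sample of the 4 groups the 5 genes kept this order. Summed over the 5 genes, condensin stood at 456, 554 and 572 TPM in tumors and at 40.1 to 65.2 TPM in controls. Cohesin stood at 465, 625 and 556 TPM in tumors and at 329 to 379 TPM in controls. The ratio of condensin to cohesin TPM was therefore 0.980, 0.887 and 1.03 in the 3 tumors and 0.112 to 0.180 in the 6 controls, with no overlap.

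Promoter sequence was available from RefSeq (GRCm38.p6) for 7 of the 10 genes, as 250 bases before a start that is not always the end of the locus. The windows of *Ncapd2* and *Stag1* lie inside the loci given here, and 115 bases of the *Ncapd2* window are in annotated exons. The *Ncapg* window runs past the start of its locus, and its CHR letters, at -30, fall in that part. Cell-cycle promoters often hold a CCAAT box and a CHR element, so CCAAT and the CHR letters TTTGAA or TTCGAA were searched on both strands, and 33.8% and 17.1% of 32851 windows of the same length held a match. Letters of E2F sites (TTCCCGC, TTTCCCGC, TTCCCGCC, TTTGGCGC or TTTCGCGC, of which the first is contained in the next ones) were in 4.42%. CCAAT was found in *Smc2*, *Ncapd2*, *Ncapg*, *Smc1a* and *Stag1*, CHR letters in *Smc2*, *Ncapd2* and *Ncapg*, and E2F letters in *Ncapd2* and *Stag1*. The sequences below show a called gene with both CCAAT and CHR letters (*Smc2*, chr4:52438971-52439220, + strand), a further one (*Ncapd2*, chr6:125191702-125191836, - strand, cut to 135 bases outside exons annotated by GENCODE), a called gene with none of these letters (*Ncaph*, chr2:127133955-127134204, - strand), and a cohesin gene with none (*Smc3*, chr19:53600146-53600395, + strand). Capitals mark CCAAT and CHR letters on either strand. In *Smc2* the CHR letters begin at -145 and the CCAAT letters at -119 from the start, and in *Ncapd2* the CHR letters begin at -123 and CCAAT letters at -177 and -148. For *Smc2* and *Smc3* the bases that follow the start used were not found in a GENCODE transcript. Their starts, and distances from them, are therefore uncertain.
Smc2: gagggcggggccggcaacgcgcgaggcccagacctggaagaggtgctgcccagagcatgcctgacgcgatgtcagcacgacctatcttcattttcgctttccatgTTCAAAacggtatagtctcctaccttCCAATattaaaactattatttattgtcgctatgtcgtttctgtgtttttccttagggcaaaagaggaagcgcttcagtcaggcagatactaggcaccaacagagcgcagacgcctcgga
Ncapd2: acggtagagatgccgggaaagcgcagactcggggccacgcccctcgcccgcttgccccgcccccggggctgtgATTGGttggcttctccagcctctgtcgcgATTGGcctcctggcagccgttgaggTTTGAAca
Ncaph: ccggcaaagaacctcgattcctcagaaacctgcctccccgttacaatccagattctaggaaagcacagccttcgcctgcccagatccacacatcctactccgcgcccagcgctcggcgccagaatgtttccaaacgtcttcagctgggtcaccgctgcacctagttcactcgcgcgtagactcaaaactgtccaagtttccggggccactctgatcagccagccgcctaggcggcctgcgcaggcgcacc
Smc3: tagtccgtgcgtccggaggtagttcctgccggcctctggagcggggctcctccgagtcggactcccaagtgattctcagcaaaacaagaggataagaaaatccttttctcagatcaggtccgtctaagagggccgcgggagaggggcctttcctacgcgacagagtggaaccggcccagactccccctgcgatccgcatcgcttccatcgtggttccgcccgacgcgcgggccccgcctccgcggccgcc

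A match is only a match of letters. *Ncaph* had none of these letters in its window. *Ncapd2* held 3 CCAAT matches, of which that at -48 lies in the part not printed, as do its E2F letters at -8. Whether these letters bear on the RNA levels was not tested.

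Cohesin differed less between tumors and controls, and its genes were not uniform. *Rad21* (Entrez 19357, chromosome 15, 51962604 to 51993538), the kleisin that separase cleaves at anaphase, stood at 212, 246 and 224 TPM in tumors. Controls stood at 138, 122 and 131 TPM in Brca2-mut;Trp53-WT mice and at 125, 128 and 131 TPM in Brca2-WT;Trp53-mut mice. Each tumor exceeded each control, with a log2 fold change of 0.81 (SE 0.07, adjusted p = 2.62e-06), past the p threshold and under the fold minimum. This was the largest change among the cohesin genes, and the ratio of means was 1.76.

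The SMC pair of cohesin gave different spreads. *Smc1a* (Entrez 24061, X chromosome, 152016428 to 152061973), which overlaps *Ribc1*, was at 108, 147 and 149 TPM in tumors, at 94.3, 86.2 and 94.8 TPM in Brca2-mut;Trp53-WT controls and at 92.6, 98.6 and 96.3 TPM in Brca2-WT;Trp53-mut controls. Its log2 fold change was 0.50 (SE 0.10, adjusted p = 0.00144), again without overlap and under the fold minimum. *Smc3* (Entrez 13006, chromosome 19, 53600396 to 53645831) was at 48.7, 109 and 74.0 TPM in tumors, at 58.6, 46.0 and 52.2 TPM in Brca2-mut;Trp53-WT controls and at 51.2, 52.5 and 54.6 TPM in Brca2-WT;Trp53-mut controls. The tumor of GB344 lay inside the control range, and the log2 fold change of 0.48 (SE 0.20) did not pass (adjusted p = 0.0511). The 95% confidence interval of the *Smc3* change ran from 0.04 to 0.92.

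STAG1 and STAG2 are alternative subunits that bind the kleisin, so a cohesin complex holds one or the other. *Stag1* (Entrez 20842, chromosome 9, 100597709 to 100958544) measured 45.3, 49.5 and 49.8 TPM in tumors, 29.9, 26.6 and 30.5 TPM in Brca2-mut;Trp53-WT controls and 34.3, 35.2 and 37.1 TPM in Brca2-WT;Trp53-mut controls. The groups did not overlap, with a log2 fold change of 0.57 (SE 0.11, adjusted p = 0.000838), under the fold minimum. *Stag2* (Entrez 20843, X chromosome, 42149297 to 42277186) measured 51.6, 74.2 and 58.3 TPM in tumors, 57.9, 48.0 and 53.6 TPM in Brca2-mut;Trp53-WT controls and 49.9, 55.5 and 57.7 TPM in Brca2-WT;Trp53-mut controls. Tumors and controls overlapped, and the log2 fold change was 0.17 (SE 0.12, adjusted p = 0.199, 95% confidence interval -0.08 to 0.43). Without a fold minimum, 8 of the 10 members were past an adjusted p of 0.01, *Rad21*, *Stag1* and *Smc1a* among them, where 26.9% of all genes were higher by that rule.

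Cohesin levels were higher and closer together than condensin levels in controls. The means over the 6 controls ran *Rad21* (129 ± 5.80 TPM), *Smc1a* (93.8 ± 4.24), *Stag2* (53.8 ± 4.11), *Smc3* (52.5 ± 4.15) and *Stag1* (32.3 ± 3.93), and *Stag2* and *Smc3* did not differ beyond their spread. In tumors *Smc3* (77.3 ± 30.3 TPM) came before *Stag2* (61.3 ± 11.6 TPM), again with overlapping ranges.

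**Figure D2:**
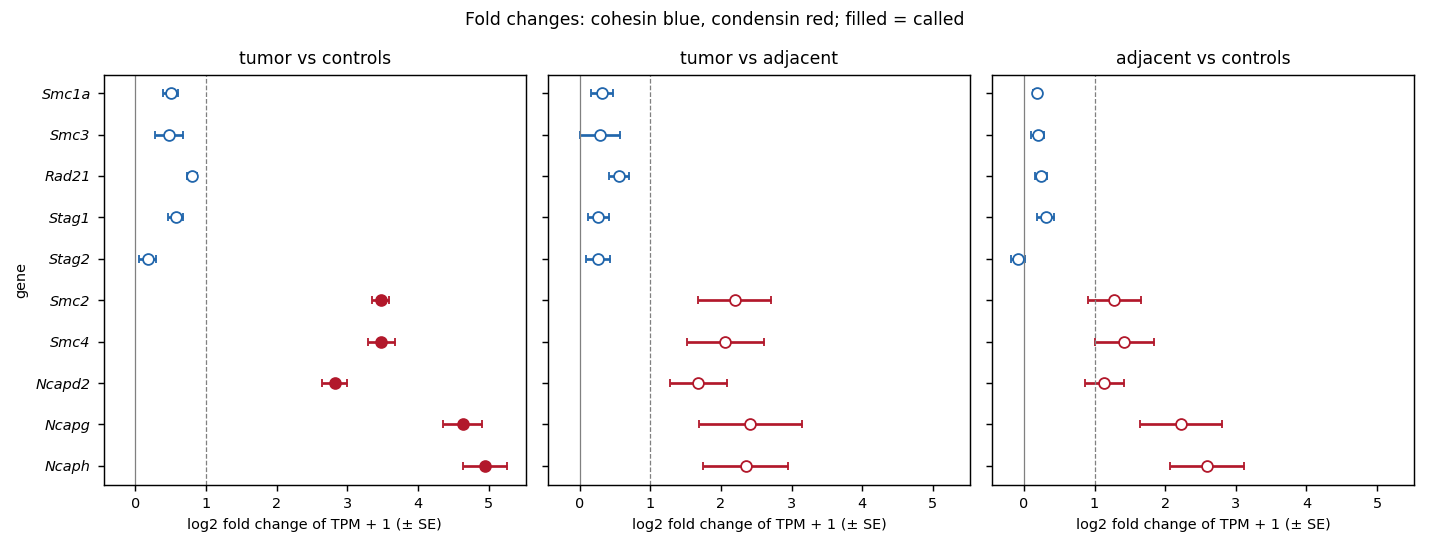
Log2 fold change of TPM + 1 (point) with its SE (bar) for each cohesin (blue) and condensin (red) gene in 3 comparisons, with a dashed line at the fold minimum of 1. Called genes are filled, and these are the 5 condensin genes in tumors against controls. The adjacent cerebellum bars of condensin genes are wider than those of cohesin genes.

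Genes that act with cohesin, and those of the related complexes, were described by role. Of the 3 condensin II subunits, *Ncapg2* rose in tumors against controls (log2 fold change 3.01, SE 0.13, adjusted p = 2.92e-08). It read 25.7, 30.6 and 31.5 TPM in tumors and 2.35 to 3.52 TPM in controls. *Ncapd3* (0.47, adjusted p = 0.0120) and *Ncaph2* (0.25, adjusted p = 0.0122) were not called. Tumors and controls did not overlap for either, as for 28.3% of all genes in that direction. For *Ncapd3* the gap was slight, with 34.04 TPM in the lowest tumor and 34.01 TPM in the highest control.

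Of 10 genes that establish, protect or cleave cohesion, 8 rose and 0 fell, where 14.4% of all genes tested were called higher and 21.5% lower. They were *Cdca5* (sororin, which protects cohesin from release, log2 fold change 4.73), *Esco2* (the acetyltransferase that acts on SMC3 in S phase, 4.42), *Sgol1* (shugoshin, which protects centromeric cohesin, 4.26), *Espl1* (separase, 4.21), *Dscc1* (3.92), *Sgol2a* (2.73), *Chtf18* (2.65) and *Ddx11* (2.27). The adjusted p was at most 1.49e-07 in each. *Esco1*, the acetyltransferase that acts outside S phase, was at -0.06 (adjusted p = 0.679), a sign that other scalings turned, and the securin gene *Pttg1* was at 0.78 with a wide spread (SE 0.75, adjusted p = 0.369).

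Of 7 genes that load, release or position cohesin, 0 rose and 1 fell, against 14.4% and 21.5% of all genes tested. *Hdac8*, the deacetylase of SMC3, fell by 1.01 on the log2 scale (adjusted p = 8.03e-05), from 36.2 to 45.3 TPM in controls to 15.3, 24.2 and 21.6 TPM in tumors. It sits at the fold minimum and lost the call without the tumor of GB344 (-0.83), without GB512 (-0.986), GB519 (-0.984) or GB520 (-0.993), against the Brca2-mut;Trp53-WT controls alone (just under 1 in size), and under median-of-ratios scaling (-0.90) and quantile normalization (-0.86). *Pds5a* (0.80), *Ctcf* (0.65), *Wapl* (0.54), *Nipbl* (0.51) and *Pds5b* (0.51) had an adjusted p between 0.000504 and 0.00671 and were under the fold minimum, and *Mau2* was at 0.21 (adjusted p = 0.275).

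Of 6 SMC5/6 genes, 2 rose, against 14.4% of all genes tested. They were *Nsmce1* (log2 fold change 1.61, adjusted p = 3.49e-07) and *Nsmce2* (1.08, adjusted p = 2.86e-06). *Nsmce2* was not called against the Brca2-WT;Trp53-mut controls alone (0.98). The SMC genes of this complex, *Smc6* (0.67, adjusted p = 0.000860) and *Smc5* (0.56, adjusted p = 0.0577), and *Nsmce3* (0.32) and *Nsmce4a* (0.21) were not called. Of 4 meiotic cohesin genes, *Smc1b* and *Rad21l* did not reach 1 TPM in 3 samples and were not tested. *Stag3* rose (1.37, adjusted p = 6.80e-05) from a low level, with 2.91, 5.39 and 3.27 TPM in tumors and 0.585 to 1.35 TPM in controls. It met the filter only through the tumors. *Rec8* did not pass (0.49, adjusted p = 0.210).

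**Figure D3:**
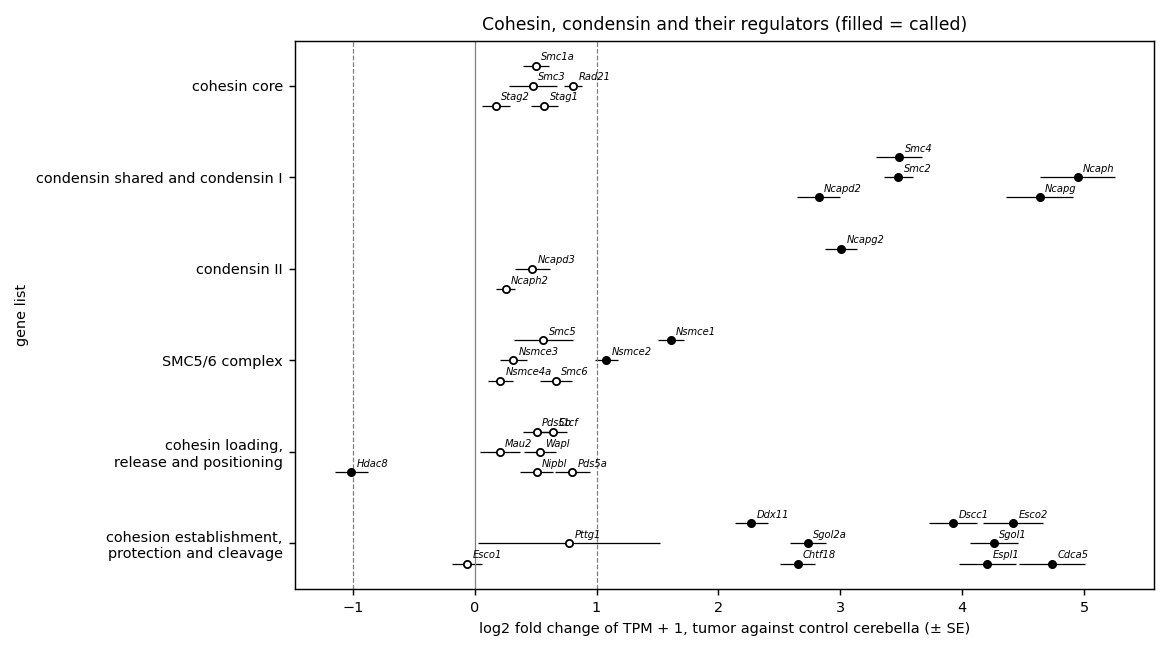
Log2 fold change of TPM + 1 (point) with its SE (bar) in tumors against the 6 controls for each gene of 6 lists. Called genes are filled, and dashed lines mark the fold minimum of 1 in either direction. The condensin I genes and the 8 called cohesion genes lie between 2 and 5, whereas cohesin core and loading genes lie mostly between 0 and 1.

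Proliferation and cell type markers moved with these results. All 9 proliferation markers and 6 of 7 granule progenitor markers were called higher in tumors, against 14.4% of all genes tested. The median log2 fold change over the proliferation list was 5.16, against -0.11 over all genes tested. *Mki67*, *Top2a*, *Cdk1*, *Ccnb1*, *Aurkb* and *Bub1* were under 1 TPM in every control but GB512, and *Atoh1* in every control. These genes met the filter only through the tumors, so their fold changes rest on low control levels. Summed levels of the proliferation list were 1279 to 1427 TPM in tumors and 101 to 163 TPM in controls. The mature granule neuron, Purkinje cell and oligodendrocyte lists had 5 of 5 markers called lower, and the astrocyte and Bergmann glia list 4 of 5. Of all genes tested, 21.5% were called lower. The other lists had 1 of 5 microglia markers (*Aif1*) and 1 of 2 tested lymphocyte markers (*Ptprc*) called higher. Of 4 endothelial markers 1 (*Flt1*) was called lower. *Cldn5* (log2 fold change 0.58, limma adjusted p = 0.00296) and *Cdh5* (0.57, adjusted p = 0.0295) were higher without overlap but under the fold minimum. The endothelial median was 0.17. By limma 0 of 4 choroid plexus markers were called in either direction. Of these, 2 of 4 were lower at an unadjusted p under 0.05, and the list's median log2 fold change was -2.43. Summed Purkinje markers ran from 70.0 to 335 TPM in tumors and 4877 to 8141 TPM in controls. In bulk tissue, fewer cells of a type and less RNA per cell cannot be told apart, and the part of cell composition in the subunit levels was not tested.

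Tumors were next set against adjacent cerebellum of the same mice, fitted as groups without pairing by mouse. By the call rule, 0 of the 10 genes passed, where 4.76% of 15845 genes were called higher. By limma's unadjusted p under 0.05, 6 of 10 were higher against 21.6% of all genes, namely the 5 condensin genes and *Rad21*, and for these 6 the groups did not overlap (23.7% of all genes). Adjacent *Smc2* was at 36.2, 25.0 and 7.29 TPM in GB344, GB359 and GB370, *Smc4* at 60.3, 40.9 and 11.6 TPM, and *Ncapd2* at 102, 70.9 and 34.3 TPM. Adjacent *Ncapg* was at 14.2, 8.59 and 0.788 TPM and *Ncaph* at 24.1, 15.1 and 3.19 TPM. For each condensin gene GB344 was the highest adjacent sample and GB370 the lowest.

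The log2 fold changes of tumor against adjacent tissue were 2.2 (SE 0.52, adjusted p = 0.0123) for *Smc2*, 2.06 (SE 0.54, adjusted p = 0.0184) for *Smc4* and 1.68 (SE 0.40, adjusted p = 0.0129) for *Ncapd2*. They were 2.42 (SE 0.73, adjusted p = 0.0309) for *Ncapg* and 2.35 (SE 0.60, adjusted p = 0.0170) for *Ncaph*. Without the adjacent sample of GB344, 4 condensin genes were called, with *Ncapg* missing, and without that of GB370 again 4, with *Ncapd2* missing. With all 4 groups in one fit all 5 were called. *Rad21* was at 173, 159 and 132 TPM in adjacent cerebellum, with a log2 fold change of 0.56 (SE 0.14, adjusted p = 0.0156). The other cohesin genes overlapped between tumor and adjacent tissue, with adjusted p from 0.125 to 0.435. Of the condensin II genes *Ncapg2* rose (2.0, SE 0.41, adjusted p = 0.0070). Of the marker lists, 1 of 9 proliferation and 1 of 7 granule progenitor markers were called higher in tumors than in adjacent tissue, while all 5 mature granule neuron, 5 Purkinje cell and 5 oligodendrocyte markers were called lower.

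Adjacent cerebellum was then set against the controls. By the call rule 0 of 10 genes passed (0.224% of 16091 genes were called higher), and 8 of 10 were higher at an unadjusted limma p under 0.05, against 22.1% of all genes. *Ncaph* had a log2 fold change of 2.60 (SE 0.53, adjusted p = 0.0173), *Ncapg* 2.22 (SE 0.58, adjusted p = 0.0333), *Smc4* 1.42 (SE 0.42, adjusted p = 0.0453), *Smc2* 1.28 (SE 0.37, adjusted p = 0.0443) and *Ncapd2* 1.14 (SE 0.28, adjusted p = 0.0267). Only *Ncapd2* and *Smc1a* did not overlap (11.7% of all genes were higher without overlap). *Ncapd2* was at 34.3 TPM in the adjacent sample of GB370 and at most 34.3 TPM in controls, so the gap was slight. Without GB370, all 5 condensin genes were called, with log2 fold changes of 1.57 (*Ncapd2*) to 3.35 (*Ncaph*), while the number of all genes called higher went from 36 to 564. All 7 granule progenitor markers were higher without overlap in adjacent cerebellum than in controls (1 of 7 called). Of the 9 proliferation markers 0 were without overlap or called, and all 9 had an unadjusted limma p under 0.05. The 4 groups share samples across these comparisons, so they are not independent of each other.

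The distance from the mean of the 6 controls to a mouse's own tumor was used as a scale for its adjacent cerebellum. For the 5 condensin genes the adjacent sample of GB344 stood at a median of 40.7% of that distance (37.6% to 60.2%), that of GB359 at 23.0% (20.7% to 24.3%) and that of GB370 at 1.2% (0.0200% to 3.38%). These ranges are over genes that move together, and each mouse gave a single adjacent sample. They did not overlap between mice, but they do not measure the uncertainty of a mouse's position. The 9 proliferation markers had medians of 37.5%, 23.2% and 1.42%, and the 7 granule progenitor markers 55.6%, 24.6% and 2.35%, in the same order of mice by median. Single markers departed from this order or these levels, with *Mycn* at 10.7% in GB344 and 21.4% in GB359, and *Pax6* at 22.3% in GB370. *Rad21* stood at 53.1%, 25.7% and 2.51%. *Stag1* stood at 118%, 38.1% and 12.03% and *Smc1a* at 118%, 20.3% and 21.7%, so that for both the adjacent sample of GB344 was above its own tumor. For *Smc3* and *Stag2* tumors overlapped the controls, and the scale is not read. Whether tumor cells were in the adjacent samples was not tested.

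**Figure D4:**
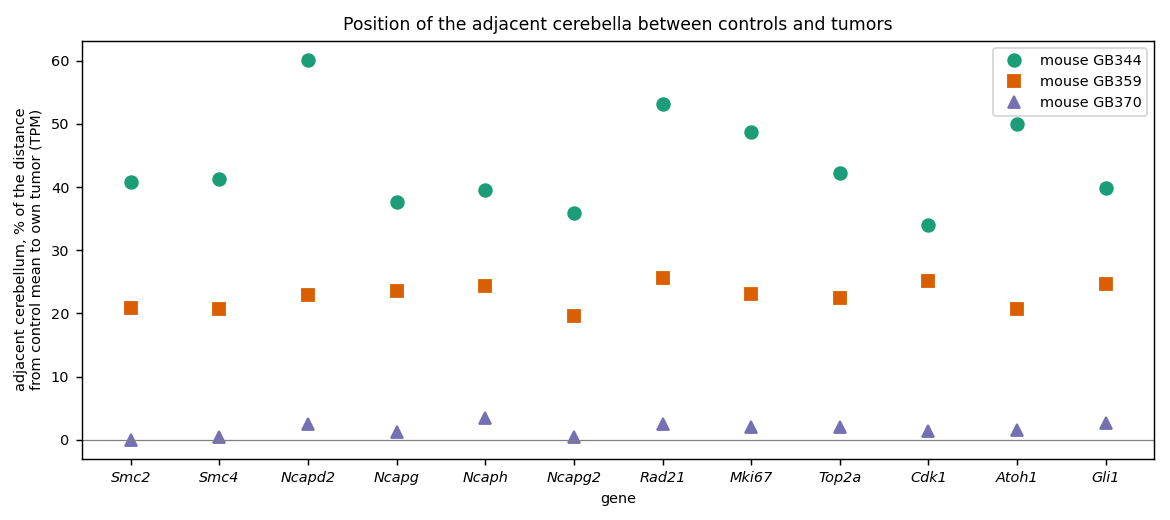
Adjacent cerebellum as a percentage of the distance in TPM from the mean of the 6 controls (0%) to the tumor of the same mouse (100%). Plotted are the condensin genes, *Ncapg2*, *Rad21*, the proliferation markers *Mki67*, *Top2a* and *Cdk1*, and the granule progenitor markers *Atoh1* and *Gli1*. For the 12 genes plotted, GB344 lies highest, GB359 between 19.6% and 25.7%, and GB370 below 4%. Some genes not plotted depart from this, among them *Mycn* (10.7% in GB344, 21.4% in GB359), *Pax6* (22.3% in GB370) and *Ncapd3* (39.8% in GB370).

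The control genotypes were compared with each other. They differ at both loci in opposite directions, so the part of either allele cannot be told apart. Of the 10 genes, 8 were tested, since *Ncapg* and *Ncaph* did not reach 1 TPM in 3 of the 6 controls. By the call rule 0 of 8 passed (the background was 0.0128% higher and 0.0449% lower among 15575 genes), and 1 of 8 was lower at an unadjusted limma p under 0.05, against 15.3% of all genes. That gene was *Stag1*, lower in each Brca2-mut;Trp53-WT control than in each Brca2-WT;Trp53-mut control (log2 fold change -0.29, SE 0.08, adjusted p = 0.130), as were 20.3% of all genes. The other 7 overlapped, with log2 fold changes between -0.13 and 0.27. *Smc4* had the highest of these (0.27, adjusted p = 0.513, 95% confidence interval -0.22 to 0.77). All 4 choroid plexus markers were also lower without overlap in the Brca2-mut;Trp53-WT group, with summed levels of 17.6, 22.3 and 872 TPM against 3942 to 5158 TPM, among them *Ttr* at 3849 to 5039 TPM in Brca2-WT;Trp53-mut mice. All 5 Purkinje cell markers were higher without overlap in the Brca2-mut;Trp53-WT group (summed 6782 to 8141 TPM against 4877 to 5330 TPM), and 2 of 5 mature granule neuron markers were lower without overlap. The part of these tissues and cells in the *Stag1* difference was not tested.

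The balance of the STAG genes was taken as the ratio of *Stag2* to *Stag1* TPM. It was 1.14, 1.5 and 1.17 in tumors and 1.16, 1.38 and 1.27 in adjacent cerebellum. It was 1.94, 1.80 and 1.76 in Brca2-mut;Trp53-WT controls and 1.45, 1.58 and 1.55 in Brca2-WT;Trp53-mut controls. The adjacent samples lay below every control, and the tumor of GB359 lay inside the control range. By a two-sided exact permutation test the log2 ratio differed by -0.41 between tumors and controls (p = 0.0238, adjusted over 4 comparisons 0.0476) and by -0.40 between adjacent cerebellum and controls (p = 0.0119, the smallest these samples allow, adjusted 0.0476). Tumor and adjacent tissue differed by -0.01 (exact p = 1), and the control genotypes by 0.26 (exact p = 0.1, the smallest possible with 3 against 3, adjusted 0.133). The test against controls pooled 2 genotypes whose ratios did not overlap. The mean log2 ratio was 0.33 in tumors, 0.87 in Brca2-mut;Trp53-WT controls and 0.61 in Brca2-WT;Trp53-mut controls. The ratio was not tested against either control genotype alone. Leaving out a sample kept the difference from controls between -0.54 and -0.34 for tumors and between -0.46 and -0.34 for adjacent cerebellum. The adjusted p was over 0.05 in most of these smaller sets, and without a tumor or adjacent sample the exact test cannot reach an adjusted p under 0.05.

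**Figure D5:**
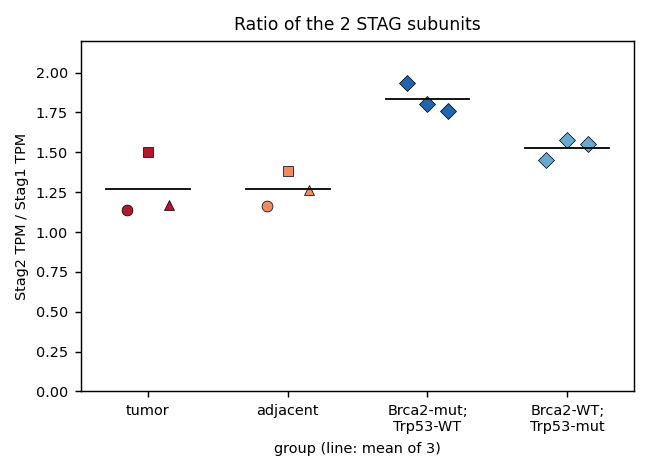
Ratio of *Stag2* to *Stag1* TPM in each sample, with a line at the mean of 3 and an axis from 0. Tumor and adjacent samples lie between 1.14 and 1.5 and Brca2-mut;Trp53-WT controls between 1.76 and 1.94, with Brca2-WT;Trp53-mut controls between 1.45 and 1.58.

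Across the 12 samples, pairs of condensin genes had correlations of log2(TPM + 1) between 0.971 and 0.996 (10 pairs) and pairs of cohesin genes between 0.521 and 0.894 (10 pairs). The 25 pairs of a cohesin with a condensin gene had correlations between 0.409 and 0.985. *Rad21* had 0.947 to 0.985 with the 5 condensin genes and 0.613 to 0.894 with the other cohesin genes. These are descriptions, since the samples fall into tumors and other tissue and share mice. Among the 3 genes of 16497 with the most similar pattern were *Esco2* (r = 0.999), *Cdca5* and *Ect2* for *Ncapg*, *Mex3a* (0.998), *Cdk1* and *Basp1* for *Ncaph*, *E2f1* (0.998), *Nasp* and *Ncapg2* for *Smc2*, *Espl1* (0.997) and *Ncapg* for *Smc4*, and *Tmsb10* (0.997), *Timeless* and *Rad51ap1* for *Ncapd2*. For cohesin they included *Rbmxl1* (0.995), *Nfib* and *Itgb1* for *Rad21*, *Xndc1* (0.984), *Nxf1* and *Rbm6* for *Stag1*, *Gm15612* (0.978) and *Maml3* for *Smc1a*, *Smc5* (0.966), *Zc4h2* and *Mb21d2* for *Smc3*, and *Fam208b* (0.954), *Vps35* and *Pcm1* for *Stag2*. Of the 10 members, *Ncapg* alone was among the 3 nearest genes of another member (*Smc4*).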

How the data were processed

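Poly(A) RNA was sequenced from 12 samples. Per the labels and methods, the authors quantified transcripts with Salmon 0.8.1 on mm10, and the deposited values are TPM for 24091 genes, of which 24045 (99.8%) matched RefSeq entries of GRCm38.p6. TPM keeps no depth, so no counting error is given, and libraries were not stated to be counted by strand.

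For each comparison, log2(TPM + 1) of every gene reaching 1 TPM in 3 or more of its samples was fitted with limma 3.58.1 (lmFit, eBayes with trend) in R 4.3.3, Benjamini-Hochberg adjusted over all tested genes. A call needed an adjusted p below 0.01 and a change of 1 or more on the log2 scale in either direction. Fits held no samples beyond the compared groups. The model was tested on simulated data. STAG ratios were tested by exact permutation with scipy 1.17.1.

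Named genes are the members, the pathway lists and the 3 most similar genes per member, of which 2 are not reported here. Members and lists were chosen with earlier results of these data known. Tumor and adjacent samples with one number come from one mouse, and their deviations from the group means correlated (r = 0.249, 0.176 and 0.152). Alternatives were other pseudocounts, filters, scalings, samples and thresholds. 0 sample columns were left unused.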

Additional observations from a re-analysis of the deposited data

Results flagged for a closer look

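Among the 6 controls, 13 of 50 quantities had a highest sample whose gap to the next, divided by the range, was above Dixon's 95% critical value for 6 values, which chance alone passes in about 1 of 20 groups. GB512 (Brca2-mut;Trp53-WT) was that sample in 12 of them. 3 of the condensin genes were among these, *Smc4* (0.812, with 17.7 TPM against 10.8 TPM in the next control), *Ncapg* (0.893, with 1.76 against 0.301 TPM) and *Ncaph* (0.901, with 3.49 against 0.814 TPM). The cohesion genes *Esco2* (0.858), *Cdca5* (0.882) and *Espl1* (0.784) were too. So were the proliferation markers *Mki67* (0.97), *Top2a* (0.95), *Cdk1* (0.856), *Ccnb1* (0.978), *Aurkb* (0.918) and *Bub1* (0.876). These genes move together across samples, so the flags are not separate. *Stag3* (0.658) had its highest control in GB519, at 1.35 against 0.847 TPM. Without GB512 the number of members called in tumors against controls was 5, as with it.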

How the results depend on the processing

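The 5 condensin calls of tumors against controls held under each alternative run, and 8 members were past an adjusted p of 0.05 or of 0.01 (added after seeing the data) with no fold minimum. Of all 16241 genes tested, 5165 were higher by the rule at 0.05 and 4369 by that at 0.01. For tumor against adjacent tissue the 0 members called became 2 with median-of-ratios scaling, 3 with quantile normalization, 5 with all groups in one fit, 6 at an adjusted p of 0.05 with no fold minimum and 0 to 4 when a sample was left out. With the mouse as replicate block the number stayed 0, and the block changed no call of a member. All genes called higher there went from 755 to 1296 (median-of-ratios), 1648 (quantile), 1271 (all groups), 465 (no filter) and 189 to 913 (leaving out a sample). At an adjusted p of 0.05 with no fold minimum, 2870 of 15845 genes were higher. For adjacent tissue against controls the 0 members became 5 at an adjusted p of 0.05 with no fold minimum, and 0 to 5 when a sample was left out. Of 16091 genes, those called higher went from 36 to 1627 by the first rule and to 0 to 564 without a sample.

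Leaving out a sample moved the log2 *Stag2* to *Stag1* difference between -0.54 and -0.34 for tumors against controls, -0.46 and -0.34 for adjacent tissue against controls, -0.13 and 0.065 for tumor against adjacent tissue, and 0.22 and 0.29 for the control genotypes. Signs turned only for small values. In tumors against controls, *Esco1* was 0.048 (median-of-ratios) and 0.10 (quantile), and without a sample ran from -0.15 to 0.066, *Rec8* from -0.032 to 0.76 and *Mau2* from -0.039 to 0.36. *Smc3* ran from -0.00073 to 0.57 in tumor against adjacent tissue, and *Stag2* from -0.15 to 0.021 in adjacent tissue against controls. Between control genotypes, median-of-ratios scaling gave 0.021 (*Smc1a*), 0.064 (*Smc3*), 0.050 (*Stag2*) and 0.034 (*Smc2*) and quantile normalization 0.065 (*Smc3*), 0.044 (*Stag2*) and 0.083 (*Smc2*). Without a sample the ranges there were -0.10 to 0.067 (*Smc3*), -0.096 to 0.038 (*Stag2*), -0.12 to 0.041 (*Smc2*) and -0.019 to 0.073 (*Rad21*). The median of all genes moved from -0.11 to 0.06 under quantile normalization in tumors against controls and from -0.14 to 0.14 in tumor against adjacent tissue. The causes were not tested.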
